A study of Mus musculus with 8 samples.

Results

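The mitochondrial respiratory chain and the ATP synthase were followed through 71 nuclear genes, of 8251 genes that had a probe set with a single gene symbol on the array. They were chosen by symbol alone. Symbols starting with Nduf and then a, b, s, v or c stood for complex I, Sdha to Sdhd for complex II and symbols starting with Uqcr for complex III. Symbols starting with Cox and a number from 4 to 8 stood for complex IV, and those starting with Atp5 for complex V, the ATP synthase. Each gene was represented by its brightest probe set over the 8 arrays. The choice gave 29 subunits of complex I, the complex I assembly factors Ndufaf1 and Ndufaf4, whose symbols share the prefix, 4 subunits of complex II, 7 of complex III, 15 of complex IV and 14 of complex V. Of the 71 genes, 63 lay in the brightest 60% of probe sets and were tested, and 8 were too dim (Ndufa12, Ndufc2, Ndufs4, Cox5a, Cox6a2, Cox7a1, Cox8a and Atp5j2). Ndufa1 was the dimmest member tested, with a mean signal of 30.0, and Ndufc2 the brightest member not tested, with a mean signal of 24.8.

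Follicular B cells of mice were profiled, all with an antigen receptor that binds hen egg lysozyme (HEL). The receptor was either IgMG, a chimera made from IgM by exchanging its extracellular spacer, its membrane-spanning part and its cytoplasmic part for those of IgG1, or IgM itself. Cells were stimulated with HEL or left unstimulated, which gave 4 groups of 2 arrays: IgMG with HEL (pools of 8 mice in 3 sorts and 6 mice in 2 sorts), IgMG unstimulated (5 and 6 mice, 2 sorts each), IgM with HEL (4 mice in 2 sorts and 2 mice in 1 sort) and IgM unstimulated (2 mice in 1 sort and 4 mice in 2 sorts). The IgMG pools held more mice than the IgM pools, so the receptor and the number of mice pooled cannot be told apart. The sources used here give no mouse strain or age, no length of stimulation and no account of how the receptor genes were introduced.

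Complexes I to IV of the inner mitochondrial membrane pass electrons from NADH and succinate to oxygen and pump protons, except for complex II, which pumps none. The ATP synthase lets the protons flow back through its membrane part and makes ATP in its soluble head. Most subunits are encoded in the nucleus and imported as proteins, and the mitochondrial genome encodes a few core subunits, which were not analysed here. Resting B cells depend largely on oxidative phosphorylation, and antigen-stimulated B cells are known to raise their oxygen consumption along with glycolysis.

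Median signal per array lay between 40.7 and 47.8. The B cell markers of the fixed list (9 of 10 found) summed to between 21912 and 27626 signal units per array. Myeloid markers (15 of 15 found) summed to 13737 on the second array of unstimulated IgMG cells and to between 1379 and 5822 on the others. Natural killer cell markers (8 of 11 found) summed to 2334 on that same array and to between 280.0 and 619.5 elsewhere. T cell markers (10 of 12 found) summed to 441 and 552 on the unstimulated IgMG arrays and to between 195 and 293 on the others. Erythroid markers (6 of 9 found) summed to between 12819 and 20235. With HEL both IgMG arrays had higher myeloid sums than both IgM arrays (5822 and 5589 against 4175 and 1379). The same held for natural killer cell sums (619.5 and 526.4 against 399.4 and 286). The second array of IgM cells with HEL had a Gapdh 5'/3' signal ratio of 0.755, an index of RNA integrity and labelling, against 0.140 to 0.395 on the others. This array and the second array of unstimulated IgMG cells are the 2 called standing apart. The probe sets used for Ndufa3, Ndufb2, Ndufb5, Uqcrb, Uqcrc2, Cox4i1, Cox6a1, Cox6b2, Cox6c, Atp5d, Atp5g2 and Atp5md are, by their identifiers, of a family type that may share signal with near-identical copies. The part of these array differences in the results was not tested except by leaving arrays out and by a fit with the Gapdh ratio as a covariate. In bulk RNA, fewer cells of a type and less RNA per cell cannot be told apart. The labels do not say whether the pools came from separate mice, so p-values measure the spread between these arrays, which may be technical.

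With antigen most transcripts of the respiratory chain, like most of all tested probe sets, had a signal close to that of unstimulated cells. In the response averaged over both receptors more members passed the test with lower than with higher signals. The share of members that fell there was near that of all tested probe sets. The fit across all 7453 tested probe sets used limma on log2(signal + 16), and a call is an adjusted p under 0.05. In IgMG cells 1 of the 63 tested members rose (Atp5md) and 1 fell (Ndufa8), or 1.59% each, where 3.1% of all tested probe sets rose and 2.29% fell. In IgM cells 1 member rose (Ndufaf4) and 2 fell (Uqcr11 and Ndufc1), 1.59% and 3.17%, where 6.7% of all tested probe sets rose and 7.27% fell. In the response averaged over both receptors, which uses all 8 arrays, 2 members rose and 8 fell, 3.17% and 12.7%, where 9.18% of all tested probe sets rose and 11% fell. The share of members that fell was near that of all tested probe sets over both receptors and below it within each receptor, and the share that rose was below it in all 3 comparisons. The median log2 change of the members was -0.07 in IgMG cells and -0.11 in IgM cells, and that of all tested probe sets was -0.05 and -0.02. The changes lay between -1.13 and 0.99 in IgMG cells and between -1.23 and 0.94 in IgM cells, and 51 members in IgMG cells and 56 in IgM cells lay within 0.5 log2 units of 0. These were 81% and 88.9% of the members, where 73.4% and 65.8% of all tested probe sets lay within that range. Of the 63 members, 25 had a lower signal with HEL in both kinds of cell, 16 a higher signal in both and 22 opposite signs, or 39.7%, 25.4% and 34.9%, where all tested probe sets gave 36.6%, 29.6% and 33.7%. All 4 arrays with HEL lay below all 4 unstimulated arrays for 12 members, 19.0%, and above them for 4, 6.35%, where all tested probe sets gave 12.9% and 10.8%.

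**Figure D1:**
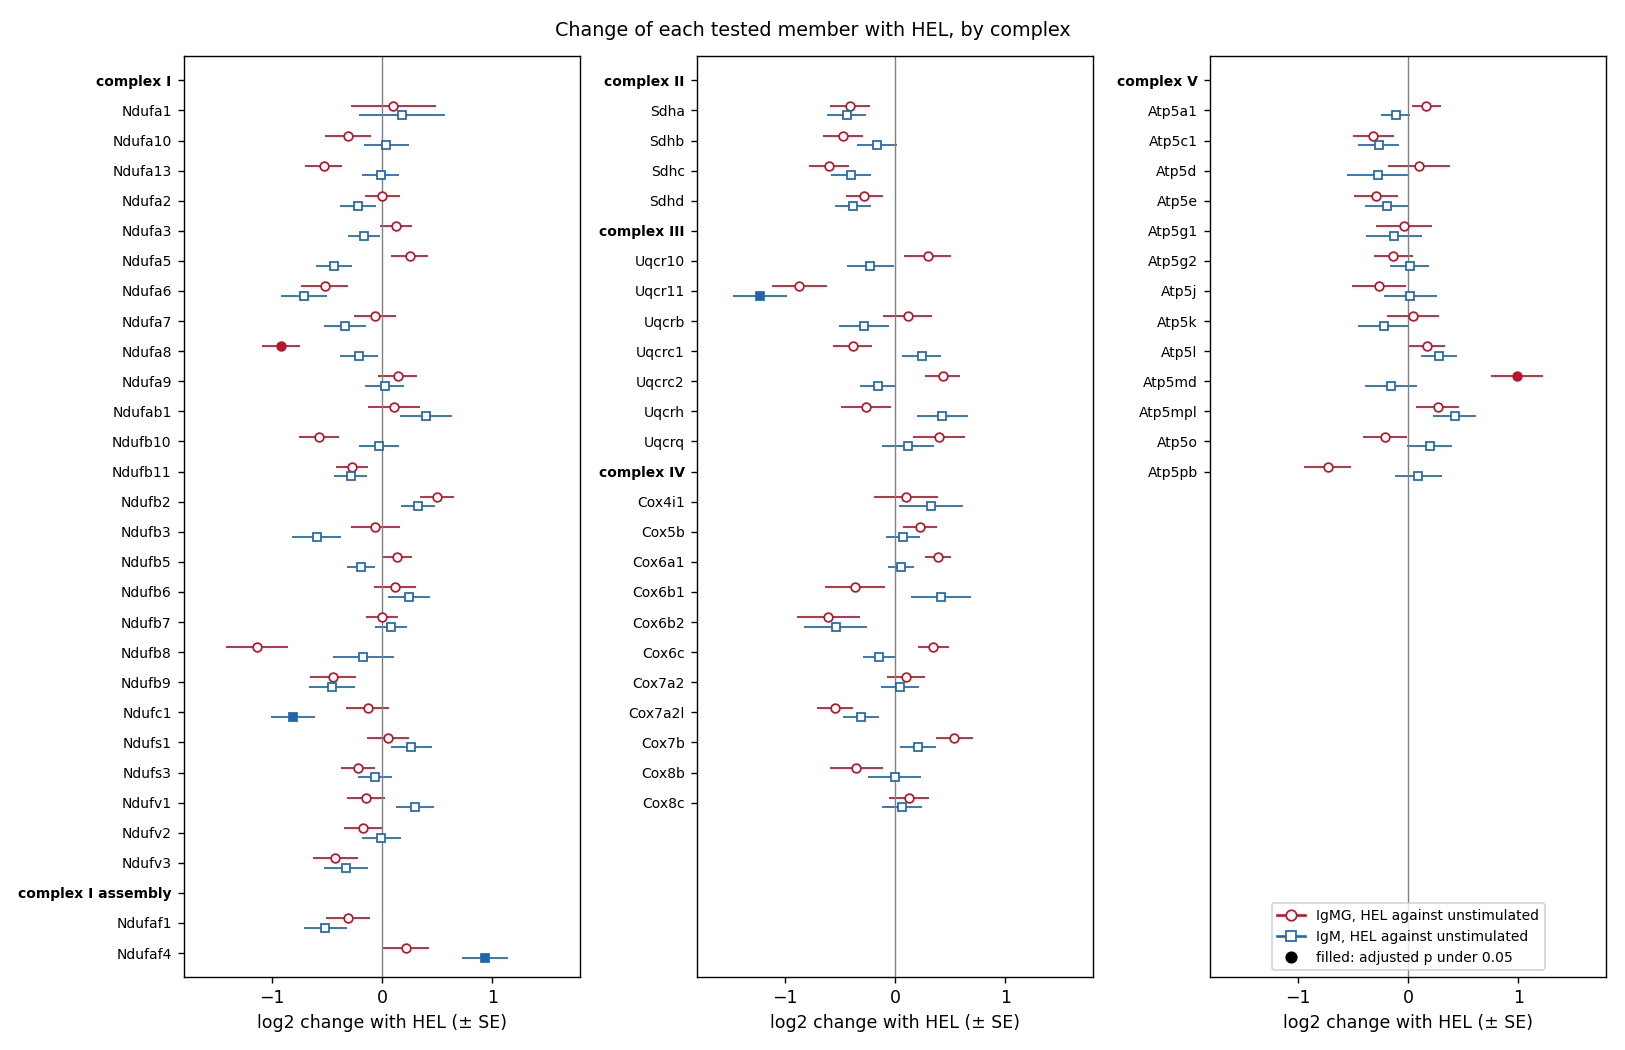
Log2 change with HEL of each of the 63 tested members, by complex, with IgMG cells as red circles above and IgM cells as blue squares below; bars are standard errors of the fit and filled symbols passed an adjusted p under 0.05. Most members lie within 0.5 log2 units of 0, all 4 Sdh genes of complex II lie left of 0 in both kinds of cell, and Uqcr11 of complex III lies furthest to the left in IgM cells.

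The fall of Uqcr11, a small accessory subunit of complex III, was the largest of any member over both receptors. Its signal was 145 and 177 in IgMG cells with HEL against 349 and 268 in unstimulated IgMG cells, a ratio of group means of 0.522. It was 105 and 156 in IgM cells with HEL against 375 and 274 in unstimulated IgM cells, a ratio of 0.401. All 4 arrays with HEL lay below all 4 unstimulated arrays. The log2 change was -0.87 ± 0.25 (SE) in IgMG cells (adjusted p = 0.0795 in limma), -1.23 ± 0.25 in IgM cells (adjusted p = 0.0129) and -1.05 ± 0.17 over both (adjusted p = 0.00397). The call over both receptors was kept in all 18 alternative settings tried, with log2 changes from -1.27 to -0.86. The call in IgM cells alone was lost without the first unstimulated array (adjusted p = 0.106) or without the first array with HEL (adjusted p = 0.0601).

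**Figure D2:**
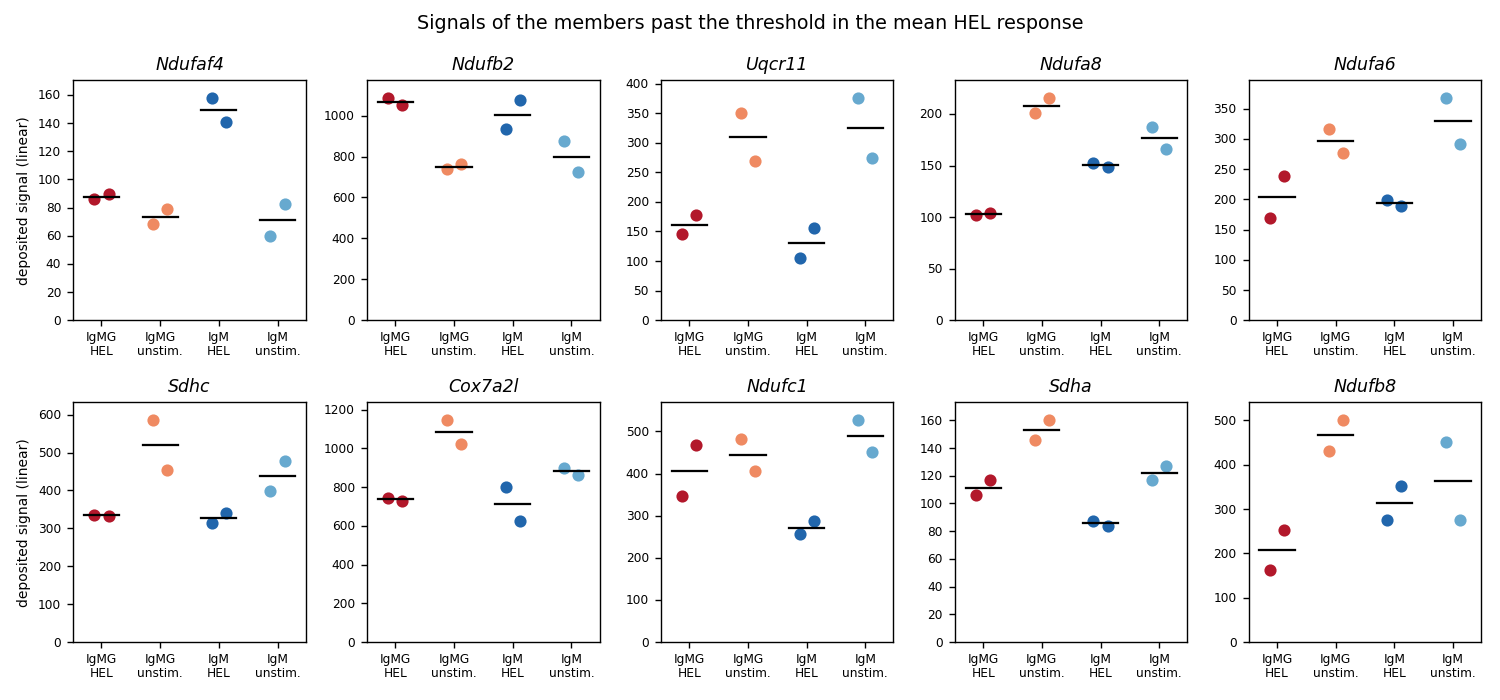
Deposited signal, on a linear axis from 0, of the 10 members past the threshold in the response averaged over both receptors, with 1 point per array and a black line at the mean of 2 arrays; groups run from IgMG with HEL and IgMG unstimulated to IgM with HEL and IgM unstimulated. Ndufaf4 and Ndufb2 are higher with HEL; for Uqcr11, Ndufa8, Ndufa6, Sdhc, Cox7a2l and Sdha all 4 arrays with HEL lie below all 4 unstimulated arrays, and for Ndufc1 and Ndufb8 they overlap.

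Promoter sequence is shown for the members called over both receptors, all but Sdhc, and for Sdhb and Sdhd, because respiratory chain genes are known to share binding sites for the nuclear respiratory factor NRF1 and for GABPA of the ETS family. RefSeq promoters of build GRCm38.p6, from 250 bases before to 50 bases after the annotated start, were available for 58 of the 71 members. Both strands were searched for the NRF1 core GCGCATGC, the ETS core CCGGAAG, the motif AAGGTCA of estrogen-related receptors, the YY1 site AAGATGGCG and the E-box CACGTG, which reads the same on both strands. The stretches below run from 100 bases before to 15 bases after the start, 5′ to 3′ on the gene's strand, with matches to the NRF1 and ETS cores in capitals. Uqcr11 (chr10:80406807-80406921, minus strand), Ndufa8 (chr2:36049324-36049438, minus strand) and Ndufa6 (chr15:82354277-82354391, minus strand) fell over both receptors and hold the NRF1 core. Ndufaf4 (chr4:24897983-24898097, plus strand) rose and holds it too. Ndufb8 (chr19:44555428-44555542, minus strand), Ndufc1 (chr3:51408941-51409055, minus strand) and Cox7a2l (chr17:83514319-83514433, minus strand) fell and Ndufb2 (chr6:39592465-39592579, plus strand) rose, and these 4 hold neither core. Sdhb (chr4:140961171-140961285, plus strand) and Sdhd (chr9:50603835-50603949, minus strand) are complex II genes with a match, and Sdha (chr13:74350226-74350340, minus strand) is one with none.
Uqcr11: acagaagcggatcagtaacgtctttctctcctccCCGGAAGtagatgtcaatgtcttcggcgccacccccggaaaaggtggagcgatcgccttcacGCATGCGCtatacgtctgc
Ndufa8: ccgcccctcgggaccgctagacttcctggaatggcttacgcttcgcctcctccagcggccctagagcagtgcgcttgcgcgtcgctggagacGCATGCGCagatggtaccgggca
Ndufa6: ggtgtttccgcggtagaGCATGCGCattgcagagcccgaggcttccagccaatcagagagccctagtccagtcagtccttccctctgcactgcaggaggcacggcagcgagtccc
Ndufaf4: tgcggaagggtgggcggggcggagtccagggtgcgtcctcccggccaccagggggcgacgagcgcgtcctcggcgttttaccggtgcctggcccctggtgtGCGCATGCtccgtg
Ndufb8: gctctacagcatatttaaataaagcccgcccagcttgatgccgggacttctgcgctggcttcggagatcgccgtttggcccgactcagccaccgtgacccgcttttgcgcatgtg
Ndufc1: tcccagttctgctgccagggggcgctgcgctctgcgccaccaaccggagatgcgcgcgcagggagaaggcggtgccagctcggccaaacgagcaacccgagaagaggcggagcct
Cox7a2l: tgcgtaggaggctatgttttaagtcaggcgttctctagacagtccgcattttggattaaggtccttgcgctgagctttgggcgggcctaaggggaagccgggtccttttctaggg
Ndufb2: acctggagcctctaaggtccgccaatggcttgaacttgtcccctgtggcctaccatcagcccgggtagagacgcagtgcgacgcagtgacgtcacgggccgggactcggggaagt
Sdhb: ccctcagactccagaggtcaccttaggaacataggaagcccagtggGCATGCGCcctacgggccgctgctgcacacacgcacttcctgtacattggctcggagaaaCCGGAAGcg
Sdhd: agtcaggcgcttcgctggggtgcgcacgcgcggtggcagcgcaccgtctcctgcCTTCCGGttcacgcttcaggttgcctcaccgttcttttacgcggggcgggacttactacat
Sdha: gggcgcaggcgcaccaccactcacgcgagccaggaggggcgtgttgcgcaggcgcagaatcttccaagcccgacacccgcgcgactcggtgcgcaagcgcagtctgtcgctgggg
The NRF1 core was found in 10 of 63 member promoters, 15.9%, against 2.71% of all 32851 promoters in the table. The ETS core was found in 25.4% of member promoters against 8.86% of all, and the YY1 site in 7.94% against 1.40%. The motif of estrogen-related receptors was found in 7.94% against 4.72%, and the E-box in 9.52% against 7.15%. Promoters of mitochondrial ribosomal proteins, mitochondrial import and folding, and the citric acid cycle held the ETS core in 31.7%, 50% and 10%. They held the YY1 site in 11.7%, 0% and 3.33%, and the NRF1 core in 6.67%, 8.33% and 6.67%. Of the 7 members with a promoter that fell over both receptors 3 held the NRF1 core, and of the 2 that rose 1 did. These shares are descriptions of the windows searched.

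Complex I, which oxidises NADH, held 26 tested subunits, and the calls among them were in accessory subunits. Over both receptors 1 rose (Ndufb2) and 4 fell (Ndufa8, Ndufa6, Ndufc1 and Ndufb8), 3.85% and 15.4%, where 9.18% of all tested probe sets rose and 11% fell. Ndufa8, an accessory subunit on the intermembrane side, had a signal of 102 and 104 in IgMG cells with HEL against 201 and 215 in unstimulated IgMG cells. It was 152 and 148 in IgM cells with HEL against 187 and 166 in unstimulated IgM cells. All 4 arrays with HEL lay below all 4 without it, and both IgMG arrays with HEL lay below both IgM arrays with HEL. The log2 change was -0.92 ± 0.17 in IgMG cells (adjusted p = 0.0197), -0.21 ± 0.17 in IgM cells (adjusted p = 0.461) and -0.56 ± 0.12 over both (adjusted p = 0.0118). Without the first array of IgMG cells with HEL the IgMG call was lost (adjusted p = 0.108), as it was without the second (0.151), without the second unstimulated IgMG array (0.0594) and in a fit of the 4 IgMG arrays alone (0.0647). The call over both receptors was lost without the first unstimulated IgM array (adjusted p = 0.0520).

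Ndufc1, an accessory subunit of the membrane arm, was 346 and 467 in IgMG cells with HEL against 483 and 405 in unstimulated IgMG cells, and these groups overlapped. It was 256 and 288 in IgM cells with HEL against 527 and 451 in unstimulated IgM cells, and these did not. Its log2 change was -0.13 ± 0.20 in IgMG cells (adjusted p = 0.758) and -0.81 ± 0.20 in IgM cells (adjusted p = 0.028), and the IgM call was lost when any 1 of the 4 IgM arrays was left out (adjusted p between 0.0723 and 0.164). Over both receptors Ndufc1 fell by 0.47 log2 units (adjusted p = 0.0433), a call lost in 11 of 18 alternative settings, among them those without any 1 of the 4 IgM arrays, without the first unstimulated IgMG array and without the first IgMG array with HEL. Ndufb8, another membrane arm subunit, had a signal of 162 and 253 in IgMG cells with HEL against 431 and 501 in unstimulated IgMG cells. With HEL it was below every unstimulated IgMG array, and in IgM cells 276 and 353 with HEL overlapped 451 and 276 without it. The log2 change of Ndufb8 of -1.13 ± 0.28 in IgMG cells, the most negative of any member there, missed the threshold (adjusted p = 0.0508), and it was -0.17 ± 0.28 in IgM cells. Its change over both receptors, -0.65 ± 0.20, passed narrowly (adjusted p = 0.0467) and lost its call in 12 of 18 alternative settings, among them those without any 1 array other than the second unstimulated IgM array and the second IgMG array with HEL.

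Ndufa6, an accessory subunit of the peripheral arm, had signals of 169 and 239 in IgMG cells with HEL and 316 and 277 in unstimulated IgMG cells. IgM cells had 199 and 189.6 with HEL and 367 and 292 without it. In both kinds of cell the arrays with HEL lay below the unstimulated ones. The change was -0.52 ± 0.21 in IgMG cells (adjusted p = 0.182), -0.71 ± 0.21 in IgM cells (adjusted p = 0.0551) and -0.62 ± 0.15 over both (adjusted p = 0.0194). The call over both was lost without the first unstimulated IgM array (0.0789), the second IgM array with HEL (0.0572) or the first IgMG array with HEL (0.0766). Ndufb2, a small membrane arm subunit, went the other way, with signals of 1085 and 1049.9 in IgMG cells with HEL and 737 and 764 in unstimulated IgMG cells. The IgM values were 934 and 1074 with HEL and 874 and 726 without it. All 4 arrays with HEL lay above the 4 others, and Ndufb2 rose by 0.41 ± 0.11 over both receptors (adjusted p = 0.0287). This call was lost in 8 of 18 alternative settings, including those without the second array of any group other than unstimulated IgMG or without the first IgMG array of either kind. A second tested Ndufb2 probe set had a change of 0.25 over both (adjusted p = 0.289), so the probe sets differed in call, and this gene's brightest probe set is of the family type named above.

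No core subunit of the arm of complex I that takes up electrons was called. Of the 4 tested, Ndufv1, which binds NADH, was 774 and 754 with HEL and 807 and 887 without it in IgMG cells. With HEL IgM cells gave 849 and 1161, against 815 and 793 without it. The changes of Ndufv1 were -0.14 ± 0.17 in IgMG cells and 0.30 ± 0.17 in IgM cells. The groups did not overlap in either kind of cell, with HEL lower in IgMG cells and higher in IgM cells. Ndufs1, Ndufs3 and Ndufv2 had changes of between -0.22 and 0.06 in IgMG cells and between -0.06 and 0.27 in IgM cells. Ndufb5, the brightest complex I member, was 1747 and 1869 with HEL and 1631 and 1649 without it in IgMG cells. For IgM cells it read 1561 and 1589.5 with HEL and 1900.5 and 1708 unstimulated. The changes of Ndufb5 were 0.14 ± 0.13 in IgMG cells and -0.19 ± 0.13 in IgM cells. Ndufa13, an accessory subunit also studied as a death regulator, and Ndufb10 had changes of -0.53 ± 0.17 and -0.57 ± 0.18 in IgMG cells without passing the test (adjusted p = 0.104 and 0.107), and of -0.01 ± 0.17 and -0.03 ± 0.18 in IgM cells. All 4 arrays with HEL were below all 4 unstimulated arrays for Ndufb9, Ndufb11 and Ndufv3 as well, with changes over both receptors of -0.45 ± 0.15, -0.28 ± 0.10 and -0.38 ± 0.14 that did not pass (adjusted p = 0.0626, 0.0932 and 0.0984).

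The complex I assembly factors, which act in building the complex and are not part of it, had changes of opposite sign. Ndufaf4 had signals of 85.9 and 89.5 in IgMG cells with HEL and 68 and 79.3 in unstimulated IgMG cells. Its IgM signals stood at 158 and 141 with HEL and 59.6 and 82.5 unstimulated. With HEL it was higher than without it in both kinds of cell, and both IgMG arrays with HEL lay below both IgM arrays with HEL. It rose by 0.94 ± 0.21 in IgM cells (adjusted p = 0.0206), rose by 0.57 ± 0.15 over both receptors (adjusted p = 0.0255) and had a change of 0.21 ± 0.21 in IgMG cells (adjusted p = 0.614). The call in IgM cells was lost without the first unstimulated array (0.144) and without the first (0.0731) or second (0.0732) array with HEL. It was also lost with the Gapdh ratio as a covariate (0.0570), and with the mean of its probe sets, where the change was 0.27 (0.443). The call over both was lost in 7 of 18 alternative settings, among them those without either IgMG array with HEL, the first unstimulated array of either kind of cell or the first IgM array with HEL. Ndufaf1 was 84.7 and 92.3 with HEL and 104 and 123.2 without it in IgMG cells. In IgM cells its signal was 72.4 and 93.2 with HEL and 124 and 124 without it, changes of -0.31 ± 0.20 and -0.51 ± 0.20, and -0.41 ± 0.14 over both receptors (adjusted p = 0.0726). All 4 of its arrays with HEL lay below the unstimulated arrays.

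All 4 subunits of complex II, the succinate dehydrogenase that also works in the citric acid cycle, had lower mean signals with HEL in both kinds of cell, and 2 of the 4 fell over both receptors. Of all tested probe sets, 36.6% were lower in both kinds of cell and 11% fell over both receptors. Sdha, the flavoprotein that oxidises succinate, had signals of 106 and 117 in IgMG cells with HEL and 146 and 160.2 in unstimulated IgMG cells. IgM cells had 87.7 and 83.9 with HEL and 117 and 127 without it. Sdhb, the iron-sulfur subunit, had 450.5 and 402 in IgMG cells with HEL and 546 and 654 in unstimulated IgMG cells. The IgM values were 505 and 557 with HEL and 674 and 529.8 without it. These subunits form the soluble part, and the arrays with HEL lay below the unstimulated ones for Sdha in both kinds of cell and for Sdhb in IgMG cells. The membrane anchor Sdhc had 336 and 333 in IgMG cells with HEL and 586 and 454 in unstimulated IgMG cells. With HEL IgM cells gave 314 and 341, against 399 and 478 without it. Its partner Sdhd had 351 and 375 in IgMG cells with HEL and 412 and 478 in unstimulated IgMG cells. For IgM cells it read 348 and 402 with HEL and 470.1 and 516 unstimulated. For both anchors all 4 arrays with HEL lay below all 4 others. The changes over both receptors were -0.42 ± 0.13 for Sdha (adjusted p = 0.0455) and -0.50 ± 0.13 for Sdhc (adjusted p = 0.0246), which passed, and -0.32 ± 0.13 for Sdhb (0.115) and -0.33 ± 0.12 for Sdhd (0.0795), which did not. In IgMG cells the 4 changes lay between -0.60 and -0.28 and in IgM cells between -0.44 and -0.17. None passed within 1 receptor. Unadjusted p was under 0.05 in limma for 3 in IgMG cells and 2 in IgM cells, or 75% and 50%. Of all tested probe sets 22.3% and 28.6% had such a p. The call of Sdha was lost in 14 of 18 alternative settings, including each one that left out an array, with changes from -0.48 to -0.31 throughout. The call of Sdhc was lost in 7 of 18, with the arrays centred on their medians and without any 1 array other than the first unstimulated IgM and the second unstimulated IgMG array. The mean centred level of the 4 genes was highest, at 0.27, on the second unstimulated IgMG array, which also had the highest myeloid and natural killer cell marker sums. Without that array the changes over both receptors were -0.39 for Sdha (adjusted p = 0.0958) and -0.59 for Sdhc (adjusted p = 0.0146).

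**Figure D3:**
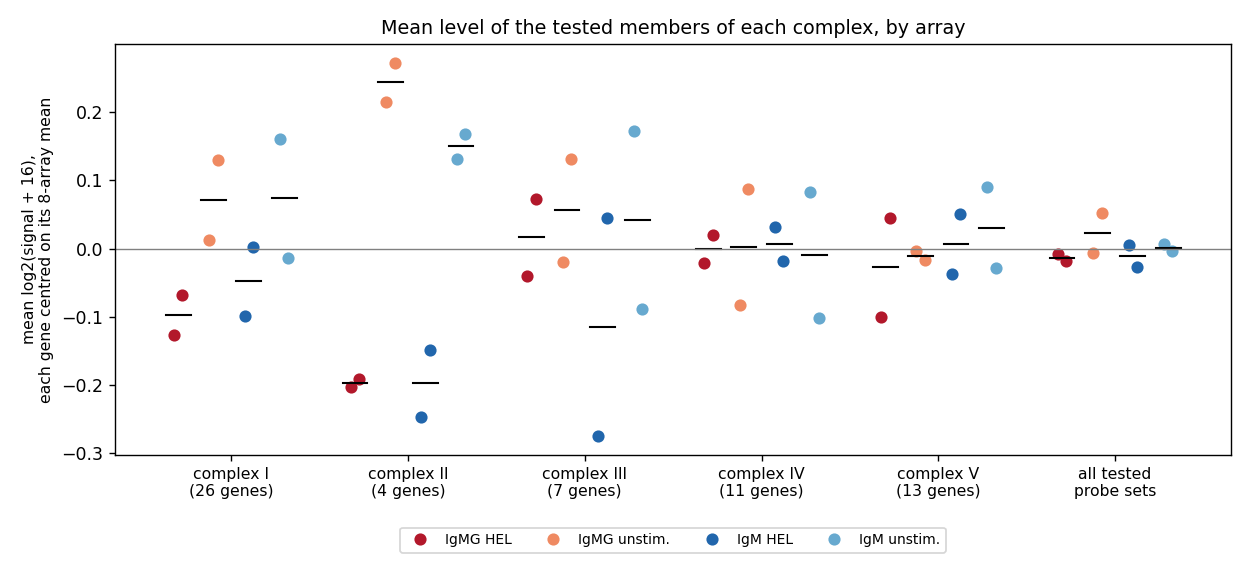
Mean log2(signal + 16) of the tested members of each complex on each array, after each gene was centred on its mean over the 8 arrays, with 1 point per array and a black line at the mean of the 2 arrays of a group; the last column shows all tested probe sets. For complex II the 4 arrays with HEL lie between -0.25 and -0.15 and the 4 unstimulated arrays between 0.13 and 0.27, while for complexes III, IV and V the arrays of different groups are mixed.

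Complex III, which hands electrons from ubiquinol to cytochrome c, had no call other than Uqcr11 among its 7 tested subunits. Thus 14.3% of them fell in IgM cells and over both receptors, where 7.27% and 11% of all tested probe sets fell. The core proteins had changes of opposite sign that did not pass the test. Uqcrc1 was 679.6 and 640.2 with HEL and 836 and 898 without it in IgMG cells. Its IgM signals stood at 717 and 991 with HEL and 732 and 689 unstimulated. The changes of Uqcrc1 were -0.39 ± 0.18 in IgMG cells and 0.24 ± 0.18 in IgM cells. Uqcrc2 was 987 and 1085 with HEL and 714 and 816 without it in IgMG cells. In IgM cells its signal was 842 and 861 with HEL and 854 and 1060.5 without it. The changes of Uqcrc2 were 0.43 ± 0.16 (adjusted p = 0.156) in IgMG cells and -0.16 ± 0.16 in IgM cells. In IgMG cells the arrays with HEL were below the others for Uqcrc1 and above them for Uqcrc2, and in IgM cells both genes overlapped. Uqcrq, a small subunit and the brightest of the complex, had 1196 and 1700.3 in IgMG cells with HEL and 1023 and 1134 in unstimulated IgMG cells. IgM cells had 1011 and 1222 with HEL and 1256 and 835 without it, with a wide spread within groups. Uqcrh, the hinge protein that contacts cytochrome c1, Uqcr10 and the ubiquinone-binding Uqcrb had changes over both receptors between -0.08 and 0.08.

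Complex IV, the cytochrome c oxidase, had 11 tested members, and the only one called was Cox7a2l, a relative of the Cox7a subunits known for joining complexes III and IV into supercomplexes. Thus 9.09% of these members fell over both receptors, where 11% of all tested probe sets fell. Cox7a2l had signals of 746 and 730.0 in IgMG cells with HEL and 1146 and 1022 in unstimulated IgMG cells. The IgM values were 798 and 626 with HEL and 901 and 861 without it. All 4 arrays with HEL lay below the other 4. It had a change of -0.54 ± 0.16 in IgMG cells (adjusted p = 0.0897) and -0.31 ± 0.16 in IgM cells (adjusted p = 0.246), and fell over both receptors, with a change of -0.43 ± 0.11 (adjusted p = 0.0298), a call lost in 8 of 18 alternative settings. Those settings left out the first or second unstimulated IgM array, the second IgM array with HEL, the first unstimulated IgMG array, either IgMG array with HEL, or both arrays that stand apart, or used no trend. Cox7a2, the widely expressed Cox7a form, was 884 and 1019.6 with HEL and 781 and 1004 without it in IgMG cells. With HEL IgM cells gave 893 and 824, against 889 and 777 without it. The changes of Cox7a2 were 0.10 ± 0.17 in IgMG cells and 0.04 ± 0.17 in IgM cells. Cox6a1 and Cox7b had higher mean signals with HEL that did not pass the test. Cox6a1, the brightest member of the complex, had 3109.7 and 3240.2 in IgMG cells with HEL and 2386 and 2449 in unstimulated IgMG cells. For IgM cells it read 2532 and 2522 with HEL and 2472 and 2406 unstimulated, with all 4 arrays with HEL above the others and a change of 0.22 ± 0.08 over both (adjusted p = 0.0985). Cox7b had 524 and 648 in IgMG cells with HEL and 406 and 386 in unstimulated IgMG cells. Its IgM signals stood at 525 and 596 with HEL and 491 and 475 unstimulated, the same order of arrays and a change of 0.37 ± 0.12 (adjusted p = 0.0542).

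No tissue form of complex IV was called. Cox7a1, the muscle form, had a signal between 1.10 and 15.3 and Cox6a2, the heart and muscle form, between 8.00 and 33.4 over the 8 arrays, and neither was tested. Cox8a, the common form of the smallest subunit, was also too dim on its probe set, with signals of 6.10 to 26.1. Cox8b, a heart and muscle form, had 74.3 and 86.5 in IgMG cells with HEL and 94.9 and 120.0 in unstimulated IgMG cells. In IgM cells its signal was 96 and 117 with HEL and 130.5 and 86.3 without it. Cox8c, known from testis, had 258 and 203 in IgMG cells with HEL and 219 and 198 in unstimulated IgMG cells. IgM cells had 238 and 224 with HEL and 215 and 227 without it. Their changes over both receptors were -0.18 ± 0.17 and 0.09 ± 0.13 and did not pass (adjusted p = 0.505 and 0.655). A second Cox8b probe set read only 3.00 to 14.1 over the 8 arrays, and a second Cox8c probe set 0.90 to 2.20. The probe sets of each gene thus differed in level, and whether these forms were expressed is not settled. Cox6b2, another testis form, had 29.9 and 37.9 in IgMG cells with HEL and 52.2 and 68 in unstimulated IgMG cells. The IgM values were 39.2 and 27.1 with HEL and 70.2 and 42.3 without it, with every array with HEL below every unstimulated one and a change of -0.57 ± 0.20 (adjusted p = 0.0818). Cox4i1, which carries the nucleotide-sensitive regulation of the oxidase, had 109 and 102 in IgMG cells with HEL and 69.8 and 134 in unstimulated IgMG cells. With HEL IgM cells gave 127 and 94.3, against 97.1 and 73 without it, and these groups overlapped in both kinds of cell.

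In the ATP synthase the single call of the 13 tested subunits was Atp5md, a small membrane subunit linked to dimers of the enzyme. Thus 7.69% of these subunits rose in IgMG cells, where 3.1% of all tested probe sets rose. The Atp5md signal was 1583 and 2251 in IgMG cells with HEL against 998 and 889 in unstimulated IgMG cells. It was 1354 and 1147 in IgM cells with HEL against 1719 and 1120.1 in unstimulated IgM cells. Both IgMG arrays with HEL lay above all others except for the first unstimulated IgM array, which lay above the lower of them. The change was 0.99 ± 0.24 in IgMG cells (adjusted p = 0.0475) and -0.15 ± 0.24 in IgM cells (adjusted p = 0.719). The IgMG call was lost in 14 of 19 alternative settings, where adjusted p reached 0.304 without the second IgMG array with HEL. It was also lost without any other 1 of the 4 IgMG arrays and without either IgM array with HEL. This probe set is of the family type, and a second probe set, which also matches Gm35857, was dim.

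The head and central stalk of the synthase had no call. The alpha subunit gene Atp5a1, the brightest of the complex, was 2041 and 2221 with HEL and 1938 and 1859 without it in IgMG cells. For IgM cells it read 2022 and 1898 with HEL and 2227 and 2009 unstimulated. The changes of Atp5a1 were 0.16 ± 0.13 in IgMG cells and -0.11 ± 0.13 in IgM cells. Atp5c1, the rotating gamma subunit, was 1077 and 1099 with HEL and 1213 and 1519.8 without it in IgMG cells. Its IgM signals stood at 1196 and 979 with HEL and 1488 and 1146 unstimulated. The changes of Atp5c1 were -0.32 ± 0.19 in IgMG cells and -0.27 ± 0.19 in IgM cells. Atp5d and Atp5e, which complete the central stalk, had a change of -0.08 ± 0.20 and -0.24 ± 0.14 over both receptors. None of these 4 passed the test in IgMG cells, in IgM cells or over both. For Atp5d, the 3 further tested probe sets had IgM changes of -0.89 (adjusted p = 0.0601), -0.22 and 0.43, so they differed in sign, beside -0.27 ± 0.28 for the one used.

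Of the genes for the c ring, which turns as protons pass, Atp5g1 and Atp5g2 had a probe set with 1 symbol, and Atp5g3 was not analysed here. Atp5g1 had 30.2 and 28.3 in IgMG cells with HEL and 30.6 and 30.1 in unstimulated IgMG cells. In IgM cells its signal was 35 and 47.4 with HEL and 50.1 and 42.5 without it. Atp5g2 had 259.6 and 275 in IgMG cells with HEL and 283 and 306 in unstimulated IgMG cells. IgM cells had 308 and 249.5 with HEL and 259 and 290.3 without it. The changes with HEL of both genes lay between -0.13 and 0.01. The peripheral stalk holds the head still, and its subunit b gene Atp5pb was 41.3 and 50.6 with HEL and 94.2 and 78.9 without it in IgMG cells. The IgM values were 69.5 and 78.3 with HEL and 65 and 71.5 without it. In IgMG cells both arrays with HEL lay below both others, a change of -0.73 ± 0.21 that missed the threshold (adjusted p = 0.0852), beside 0.09 ± 0.21 in IgM cells. Atp5o, which links the stalk to the head, had a change of -0.21 ± 0.20 in IgMG cells and 0.20 ± 0.20 in IgM cells, and the coupling factor gene Atp5j had -0.26 ± 0.24 and 0.02 ± 0.24. Among small membrane subunits, Atp5mpl had 1033 and 923 in IgMG cells with HEL and 675 and 966 in unstimulated IgMG cells. With HEL IgM cells gave 1051 and 1264, against 801 and 913 without it. The changes of Atp5mpl were 0.27 ± 0.20 in IgMG cells and 0.42 ± 0.20 in IgM cells (adjusted p = 0.48 and 0.197). Atp5l and Atp5k had changes over both receptors of 0.23 ± 0.11 and -0.09 ± 0.17, which did not pass. Further probe sets of Atp5g1 and Atp5l had a change of the other sign in IgM cells, 0.17 and -0.35, as had one of Cox4i1, -0.02.

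The receptors were compared directly in 3 ways, and no member passed in any of them. For the difference of the HEL responses, IgMG minus IgM, 0% of all tested probe sets were called by limma, and at an unadjusted p under 0.05 there were 10 of 63 members, 15.9%, against 10.1% of all. For unstimulated IgMG against IgM cells 0% of all were called, and at an unadjusted p under 0.05 there was 1 member, 1.59%, against 4.62%. With HEL, 0.0134% of all were called, and at an unadjusted p under 0.05 there were 8 members, 12.7%, against 13.9%. Atp5md had the smallest p of the members for the difference of responses, at 1.14 ± 0.33 (adjusted p = 0.414). Ndufa8 had a difference of -0.71 ± 0.24, Ndufa5 of 0.69 ± 0.23, Atp5pb of -0.82 ± 0.30, Ndufc1 of 0.68 ± 0.28 and Ndufaf4 of -0.72 ± 0.30, with adjusted p-values between 0.437 and 0.472. The changes listed for the members in only 1 kind of cell were therefore not shown to differ between the receptors.

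Genes around the respiratory chain were read from lists of the same pathway. Of 12 tested electron carriers and partners none was called within a receptor, and over both 2 rose and 1 fell, 16.7% and 8.33%, where 9.18% of all tested probe sets rose and 11% fell. Cycs, the soluble cytochrome c, rose over both receptors by 0.71 ± 0.18 (adjusted p = 0.0264), with 122 and 162 in IgMG cells with HEL and 70.9 and 119 in unstimulated IgMG cells. For IgM cells it read 172 and 147 with HEL and 69.4 and 89.8 unstimulated. Gpd2, which feeds electrons from glycerol phosphate, rose by 0.53 ± 0.14, and Coq9 of ubiquinone synthesis had a change of -0.57 ± 0.14 (adjusted p = 0.028 and 0.022). Cyc1, the cytochrome c1 of complex III, had a change of 0.05 ± 0.09 (adjusted p = 0.75). Of 15 tested assembly factors of the complexes 3 fell over both receptors (Acad9, Surf1 and Uqcc3, between -0.59 and -0.39), 20% where 11% of all tested probe sets fell, and none rose, and within a receptor none was called. Slc25a4, a carrier that exchanges ADP for ATP, fell in IgM cells, with a change of -0.91 ± 0.17 (adjusted p = 0.0094), and had a change of -0.45 ± 0.17 in IgMG cells (adjusted p = 0.159), the only gene called of 7 tested in its list. Thus 14.3% of that list fell in IgM cells, where 7.27% of all tested probe sets fell. Slc25a5, the sister of Slc25a4, had values of 0.06 ± 0.28 in IgMG cells and 0.88 ± 0.28 in IgM cells (adjusted p = 0.926 and 0.0658). The ATP synthase inhibitor Atpif1 had -0.30 ± 0.25 and -0.50 ± 0.25 (adjusted p = 0.545 and 0.224).

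Calls among genes of protein import were mostly higher signals with HEL. The list of regulators of mitochondrial genes was small, and the share of it that rose was above that of all tested probe sets. Of 11 tested regulators 2 rose in IgMG cells, in IgM cells and over both, or 18.2% each. Of all tested probe sets 3.1%, 6.7% and 9.18% rose. The number of regulators that fell was 1, 0 and 1, or 9.09%, 0% and 9.09%, where 2.29%, 7.27% and 11% of all fell. The list medians were 0.12, -0.13 and -0.02. The transcription factor Myc rose by 3.54 ± 0.22 in IgMG cells and 3.69 ± 0.22 in IgM cells (adjusted p = 1.07e-04 and 5.01e-05), and Pprc1, a coactivator of respiratory genes, by 1.45 ± 0.18 and 1.65 ± 0.18 (adjusted p = 0.00326 and 7.93e-04). Polg2, of the mitochondrial DNA polymerase, fell in IgMG cells (-1.19 ± 0.24, adjusted p = 0.0275) and had -0.81 ± 0.24 in IgM cells (adjusted p = 0.0562). Gabpa had a change of 0.09 ± 0.17 and -0.13 ± 0.17, and Tfam was too dim to be tested, with signals from 1.40 to 18.4. Of 24 tested genes of import and folding, 4 rose and 0 fell in IgMG cells, 6 rose and 1 fell in IgM cells, and 7 rose and 1 fell over both, with list medians of 0.18, 0.55 and 0.30. The shares that rose were 16.7%, 25% and 29.2%, where 3.1%, 6.7% and 9.18% of all tested probe sets rose. The shares that fell were 0%, 4.17% and 4.17%, where 2.29%, 7.27% and 11% of all fell. Timm8a1, a small import chaperone, rose by 1.90 ± 0.19 in IgMG cells and 1.77 ± 0.19 in IgM cells, and the import channel gene Timm23 by 0.74 ± 0.14 and 1.15 ± 0.14. The matrix chaperone Hspa9 rose by 1.10 ± 0.18 and 1.15 ± 0.18, and Hspd1 by 1.55 ± 0.29 in IgMG cells, beside 0.81 ± 0.29 in IgM cells (adjusted p = 0.0973). Timm17b and Tomm7, both of translocases, were called in IgM cells at 0.69 ± 0.17 and -0.74 ± 0.19, as were Timm9, another small chaperone, at 0.94 ± 0.25 and the matrix protease gene Lonp1 at 0.68 ± 0.18.

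Of 19 tested genes of the citric acid cycle and its entry, which supplies NADH and succinate to the chain, 1 fell in IgMG cells, 5 fell in IgM cells and 6 fell over both, 5.26%, 26.3% and 31.6%, and none rose. Of all tested probe sets 2.29%, 7.27% and 11% fell in these comparisons and 3.1%, 6.7% and 9.18% rose. Suclg1, of the enzyme that makes succinate, was 221 and 241 with HEL and 399.9 and 411 without it in IgMG cells. Its IgM signals stood at 232 and 235 with HEL and 484 and 393 unstimulated. It fell in both kinds of cell, with log2 changes of -0.77 ± 0.17 and -0.86 ± 0.17 (adjusted p = 0.0345 and 0.0112). The kinase gene Pdk1, which restrains pyruvate dehydrogenase, had a change of -0.72 ± 0.19 in IgMG cells (adjusted p = 0.0635) and fell in IgM cells, at -1.23 ± 0.19 (adjusted p = 0.00418). Citrate synthase, Cs, was at -0.55 ± 0.14 in IgM cells (adjusted p = 0.0355), and Idh3g and Sucla2 fell there too, at -0.77 ± 0.20 and -0.63 ± 0.17. Of 7 tested genes of mitochondrial peroxide and superoxide defence none was called in IgMG cells, in IgM cells or over both by limma. At an unadjusted p under 0.05 there were 2, 0 and 2, or 28.6%, 0% and 28.6%. Of all tested probe sets 22.3%, 28.6% and 33.5% had such a p.

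Counts for other large protein machines are given beside those of the members. Over both receptors 1 of 58 mitochondrial ribosomal protein genes rose and 5 fell (1.72% and 8.62%), 2 of 27 cytosolic ribosomal protein genes rose and none fell (7.41%), and 1 of 35 proteasome genes rose and 4 fell (2.86% and 11.4%). In IgMG cells Mrpl28, Mrpl34, Mrpl44 and Mrps34 of the mitochondrial ribosome fell, with changes between -0.95 and -0.76. In IgM cells Mrpl18 and Mrpl43 fell (-0.89 ± 0.16 and -0.74 ± 0.18) and Mrpl50 rose (1.11 ± 0.24). Of the proteasome, Psmb9, an immunoproteasome subunit, fell in both kinds of cell (-0.76 ± 0.18 and -0.88 ± 0.18). Its partner Psmb8 fell and Psmd12 rose in IgMG cells (-0.60 ± 0.13 and 0.73 ± 0.17), and Psmd5 fell in IgM cells (-1.28 ± 0.34). The median changes of these lists over both receptors were -0.02, 0.10 and 0.01, beside -0.08 for the 63 members and -0.04 for all tested probe sets. The members called included none of the brightest members of complexes I, III, IV and V (Ndufb5, Uqcrq, Cox6a1 and Atp5a1). A probe set that matches both Cox7c of complex IV and Gm12338 was brighter than Cox6a1, with a mean signal of 4827. It was not used, since it has several symbols. Another such probe set, which matches Ndufs5 of complex I and Ndufs5-ps, fell in IgM cells (-0.76 ± 0.19, adjusted p = 0.0325 in limma). Over both receptors it fell as well (-0.57 ± 0.14, adjusted p = 0.0198), and in IgMG cells it had -0.37 ± 0.19 (adjusted p = 0.303). No other probe set of the rule with several symbols was called.

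**Figure D4:**
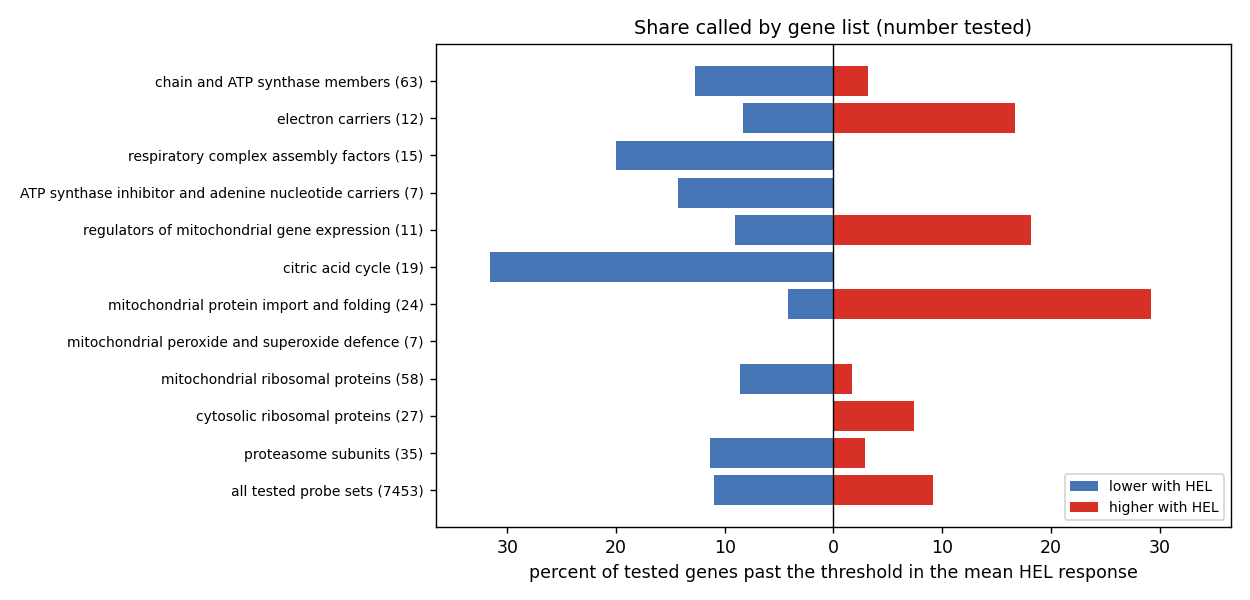
Percent of the tested genes of each list past the threshold in the response averaged over both receptors, with genes lower with HEL to the left of 0 and genes higher with HEL to the right; the number tested is in brackets. Of the 63 members 12.7% fell and 3.17% rose, of the citric acid cycle 31.6% fell, and of import and folding 29.2% rose, where all tested probe sets had 11% and 9.18%.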

How the data were processed

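RNA of sorted follicular B cells, pooled over mice, was hybridised to 8 arrays with 1 colour. The deposited values are linear intensities, 1 for each probe set, which the authors obtained with MAS5 per the submitters' processing notes. From the values, every array had been scaled to a trimmed mean of 150.1, which takes total signal to be alike between arrays. The number of arrays limits the precision, and 0.333 is the lowest p that an exact permutation of 2 against 2 arrays allows.

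Groups and experiment numbers came from the sample titles. Probe sets with several symbols (10 for genes of the rule) were not used. The log2 of signal plus 16 was tested, so folds of dim genes are understated. The brightest 60% of probe sets, without control probe sets, entered limma 3.58.1 (R 4.3.3), fitted with 4 group means over the 8 arrays, a mean-variance trend, two-sided tests and Benjamini-Hochberg adjustment at 0.05. There were 4 residual and 4.87 prior degrees of freedom. Errors of log2 changes are standard errors. Alternatives varied the offset, scaling, filter, trend, arrays in the fit, probe set choice, a block and a covariate. The members and lists were chosen with earlier results of these data known. Genes were named if called in a comparison, of smallest p or brightest in a complex, of complex II, the c ring or a set of tissue forms, or called or singled out in the pathway lists. Any member could be named. Ucp2, Nrf1 and Ppargc1b were not analysed here. Code was tested on simulated data. Python 3.11.15 with matplotlib 3.10.9 drew the figures.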

Additional observations from a re-analysis of the deposited data

Results flagged for a closer look

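For 3 members of complex I the arrays with HEL and the unstimulated arrays did not overlap in either kind of cell and stood in opposite orders in IgMG and IgM cells. The share of all tested probe sets with this pattern was not counted, so these 3 are a description. Changes of opposite sign, a looser pattern, were seen for 34.9% of members and 33.7% of all tested probe sets. Limma's test of the difference of the responses did not pass for any of the 3 members. Ndufa5, an accessory subunit, was 587 and 685 with HEL and 518 and 543 without it in IgMG cells, and 469.8 and 385 with HEL and 594 and 568 without it in IgM cells, a difference of responses, IgMG minus IgM, of 0.69 ± 0.23 (SE, adjusted p = 0.437). Ndufb5 had a difference of 0.33 ± 0.18 (adjusted p = 0.54) on a probe set of the family type, and Ndufv1 of -0.44 ± 0.25 (adjusted p = 0.535). Over 18 alternative settings the differences lay between 0.50 and 0.82 for Ndufa5, 0.25 and 0.43 for Ndufb5, and -0.67 and -0.10 for Ndufv1. The differences kept their signs, and none passed. In the settings that left arrays out the sign could not have changed, so it is no check there. The 3 members were chosen for arrays that did not overlap and stood in opposite orders, which holds with fewer arrays too.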

How the results depend on the processing

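The alternatives were 18 or 19 for each result, and no called member changed direction in any of them. In IgMG cells the number of members called, 2, became 1 with an offset of 1, with quantile normalization, with no filter, with no trend, with the replicate block or with the Gapdh ratio as covariate, and 0 in a fit of the IgMG arrays alone. In IgM cells it was 3, and 1 with the Gapdh ratio as covariate. Over both receptors it was 10, and 6 with no filter or with no trend. Leaving out 1 array gave 0 to 2 in IgMG cells, 0 to 4 in IgM cells and 2 to 10 over both receptors, with the lowest counts without either IgMG array with HEL or the second unstimulated IgMG array, without the first array of either IgM group, and without the first IgMG array with HEL. The members' median change in IgMG cells, -0.0657, was -0.00728 with arrays centred on their medians and -0.0146 with the covariate. The members' median change in IgM cells, -0.110, was -0.0259 with no filter. The median difference of responses, -0.05, was 0.0526 with arrays centred on their medians, 0.0483 with the covariate and 0.0438 without both arrays that stand apart, so it has no settled sign. Centring moved the median difference of all probe sets to 0.08, against -0.02 before. Leaving out 1 array gave member medians of -0.190 to -0.0427 in IgMG cells, -0.184 to -0.0158 in IgM cells, -0.0706 to 0.0863 for the difference and -0.0873 to 0.0762 between unstimulated cells. With the replicate block 1 member was called in IgMG cells. Deviations of same-numbered arrays correlated between -0.161 and 0.0163 over all tested probe sets, so no shared effect of the experiment number was seen. With 2 arrays a group this cannot settle whether the experiments were paired. The cause of the moves in counts and medians was not tested. Signals near background limit what can be said of the 8 dim members.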
